A study of Saccharomyces cerevisiae with 6 samples.

Results

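The enzymes that build histidine in budding yeast are encoded by 7 genes, HIS1 to HIS7, and all 7 were measured among the 5449 Saccharomyces cerevisiae genes on the arrays. They were chosen by gene symbol, and each was read by a single probe set. RNA of 6 samples was hybridised to single-colour Affymetrix arrays, 3 per group. In the zymolyase group, cells were held for 20 min at 25 °C in zymolyase, which breaks down the glucan of yeast walls, before extraction by the MagExtractor kit. The control group's RNA came from the FastRNA Pro Red kit, and the labels name no zymolyase for it. All cells had grown for 2 days at 25 °C in YPD, a rich medium, to which the detergent SDS was added at 0.01%. Enzyme and kit changed together, so their effects cannot be told apart. Both groups carry the strain label BY4743, a MATa/α diploid with the alleles his3Δ1, leu2Δ0, met15Δ0, ura3Δ0 and lys2Δ0, of which BY4743 keeps a functional copy of MET15 and LYS2. The labels do not state whether the 3 samples of a group were separate cultures. The p-values therefore rest on the spread between arrays, and that spread may be technical only.

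Histidine is made from phosphoribosyl pyrophosphate (PRPP) and ATP in a chain of reactions whose first enzyme is inhibited by histidine itself. The chain also returns an intermediate of purine synthesis, AICAR, so the histidine and purine pathways are coupled. In yeast the HIS genes are scattered over the genome rather than joined in an operon, and Gcn4, the activator that responds to amino acid starvation, raises their transcription. Bas1 and Pho2 add basal activation at HIS4 and HIS7 and also act on the purine genes. The 7 genes lie on 6 chromosomes in the R64 gene table.

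The strain label was checked first, because it bears on HIS3. The allele his3Δ1 is a partial deletion, so a HIS3 probe set that is bright does not by itself go against the label. HIS3 was above the background on all 6 arrays. The background is the 95th percentile of the 1746 probe sets whose single annotated gene did not match the S. cerevisiae gene table. It lay at a signal of 8.3 to 10.9 by array. The label's URA3 and LEU2 alleles remove the coding sequence, and both genes were bright as well. URA3 averaged 2648 ± 26.6 in zymolyase and 1956 ± 61.6 in control arrays, and LEU2 401.4 ± 27.3 in zymolyase and 684.4 ± 160 in control arrays (mean signal ± SD, n = 3). Of the mating-type genes, 4 of 4 alpha-specific ones lay above the median gene on every array, with signals of 1485 to 7412, and 7 of 7 a-specific ones lay below it on every array, with signals of 8.0 to 133.8. The summed alpha-specific signal was 9813 to 16822 in zymolyase and 12320 to 15105 in control arrays, and the a-specific sum 243.9 to 402.4 in zymolyase and 206.6 to 255.0 in control arrays. All 9 genes that an a/α diploid represses were above the background on every array, with signals of 282.0 to 2586.6. Of these, 4 lay above the median gene on every array and 0 lay below it on every array. The signals of all 9 summed to 8250 to 10756 in zymolyase and 7479 to 8403 in control arrays. Of the 7 dim a-specific genes, 5 were also above the background on every array. LYS2 averaged 1061 ± 90.7 in zymolyase and 750.0 ± 128 in control arrays, and MET17 (MET15) 2028 ± 1426 in zymolyase and 4002 ± 882 in control arrays (mean signal ± SD, n = 3). The bright URA3 and LEU2 go against their labelled alleles, and the bright alpha-specific genes go against the labelled a/α diploid. The dim a-specific genes were not taken as going against it. The samples are therefore called labelled BY4743, and whether the HIS3 transcript is that of the partly deleted allele was not tested.

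Between zymolyase and control arrays, 1 of the 7 genes rose, 1 fell and 5 did not pass. HIS7 was 1.86-fold higher and HIS3 1.97-fold lower in zymolyase arrays. Among all genes tested, 22.5% passed as higher, 20.0% as lower and 42.5% in either direction, so the members' count of 2 of 7 is no more than the background. Each gene was tested by limma on log2 signal, and passed where its p, adjusted by Benjamini-Hochberg across all genes, was under 0.05. The median log2 change was -0.05 for the 7 genes and 0.04 for all genes. Their log2 changes ran from -0.98 to 0.89. The values of the 2 groups did not overlap for HIS7, which was higher in zymolyase, and for HIS1 and HIS3, which were lower, whereas 27.2% of all genes lay apart in the higher direction, 25.7% in the lower and 52.9% in either.

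**Figure D1:**
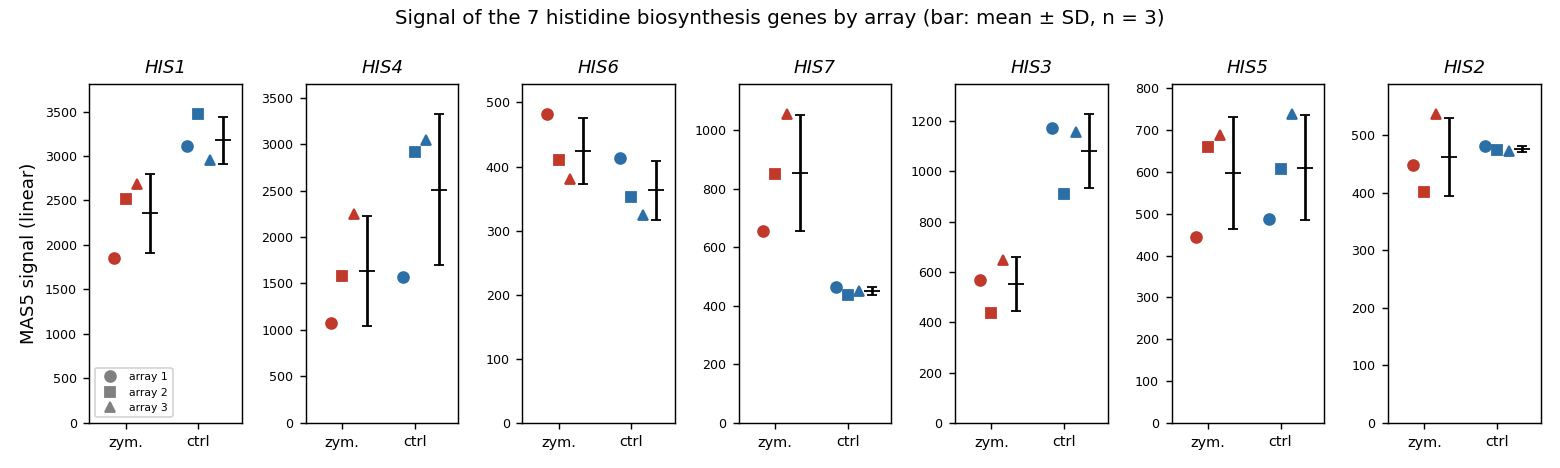
MAS5 signal on a linear axis that starts at 0, with a panel for each histidine gene in the order of the pathway. Each symbol is an array (circle 1, square 2, triangle 3), zymolyase in red on the left and control in blue on the right, and the black bar is the mean ± SD (n = 3). HIS7 lies higher and HIS3 lower on all 3 zymolyase arrays, and HIS4 spans 1074.9 to 2247.9 in zymolyase and 1573.5 to 3039.2 in control arrays.

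HIS1 encodes ATP phosphoribosyltransferase, the committed and feedback-regulated enzyme of the pathway. Its signals were 1856.3, 2516.0 and 2689.8 in the zymolyase arrays 1, 2 and 3, against 3107.2, 3466.7 and 2956.6 in the control arrays 1, 2 and 3. Every zymolyase array was below every control array, and the log2 change was -0.45 (SE 0.17, 95% interval -0.85 to -0.05). It did not pass with limma over all genes (adjusted p = 0.0700). In the fit with the replicate number as a block the same change passed (adjusted p = 0.0277), and so it did after centring each array on its median (log2 -0.61, adjusted p = 0.0326), within 0.0277 to 0.350 over 14 alternatives. The labels do not say that samples of the same number were pairs, and that block was chosen from these data. It raised the calls over all genes from 1224 higher and 1092 lower to 1702 and 1490. The change of HIS1 was -0.23 with the length trend removed (adjusted p = 0.350) and -0.29 without zymolyase array 1 (0.157).

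HIS4 encodes the multifunctional enzyme that carries out the steps after HIS1 and also the final oxidation of histidinol to histidine. Its signals were 1074.9, 1576.2 and 2247.9 in the zymolyase arrays, against 1573.5, 2909.9 and 3039.2 in the control arrays. The groups overlapped, since control array 1 had about the signal of zymolyase array 2 and less than zymolyase array 3. Within a group the highest array was 2.09 times the lowest in zymolyase and 1.93 times in control, and the log2 SD of 0.53 in each group was the largest of the 7 genes. The log2 change was -0.62 (SE 0.33, limma adjusted p = 0.166), with an interval from -1.39 to 0.15. Array for array by replicate number the change was -0.55, -0.88 and -0.44. In the fit with that block, which rests on the data and not on the labels, the call was made (SE 0.13, adjusted p = 0.00602). It was also made without control array 1 (log2 -0.93, adjusted p = 0.0320), within 0.00602 to 0.392 over the alternatives. Without zymolyase array 1 the change was -0.35 (adjusted p = 0.392).

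HIS6 and HIS7 serve the middle of the pathway, where HIS6 encodes the isomerase that opens the sugar ring and HIS7 the imidazole glycerol phosphate synthase that closes the imidazole ring and releases AICAR. HIS6 had signals of 481.2, 410.7 and 380.4 in the zymolyase arrays, against 413.9, 351.7 and 323.8 in the control arrays. The groups overlapped, although each zymolyase array was above the control array of its number, by 0.22, 0.22 and 0.23 on the log2 scale. Its log2 change of 0.22 (SE 0.17) did not pass with limma (adjusted p = 0.321) or with the block (0.150). HIS6 passed with the trend on coding length removed (log2 0.50, adjusted p = 0.0468), at the low end of 0.0468 to 0.781 over the alternatives.

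HIS7 rose, with signals of 655.5, 851.6 and 1054.2 in the zymolyase arrays, against 465.9, 437.8 and 449.6 in the control arrays. All zymolyase arrays were above all control arrays, and they were also more spread, the highest being 1.61 times the lowest in zymolyase and 1.06 times in control. The mean was 853.8 ± 199 in zymolyase and 451.1 ± 14.1 in control arrays (SD, n = 3), a log2 change of 0.89 (SE 0.19, 95% interval 0.45 to 1.34, limma adjusted p = 0.00789). Of all genes, 86.5% had a lower change. HIS7 kept its call in all 14 alternatives, with log2 changes of 0.73 to 1.07 and adjusted p up to 0.0336.

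HIS3 encodes imidazole glycerol phosphate dehydratase, which acts on the product of HIS7. HIS3 fell: the signals were 567.3, 438.0 and 649.3 in the zymolyase arrays, against 1172.7, 910.7 and 1156.1 in the control arrays. Every zymolyase array was below every control array, and array 2 was the lowest in both groups. The mean was 551.5 ± 107 in zymolyase and 1080 ± 147 in control arrays (SD, n = 3), and the log2 change -0.98 (SE 0.19, 95% interval -1.43 to -0.53, limma adjusted p = 0.00570). Only 9.97% of genes had a lower change. The call held in all 14 alternatives, with log2 changes of -1.14 to -0.68 and adjusted p up to 0.0268. The signals of HIS7 and HIS3, genes of successive enzymes, thus changed in opposite directions. These were the highest and lowest changes of the 7 genes, so the ratio of the pair adds no separate support. The log2 ratio of HIS7 to HIS3 within an array was higher in zymolyase by 1.87 (SE 0.24). It was 0.21, 0.96 and 0.70 in the zymolyase arrays, against -1.33, -1.06 and -1.36 in the control arrays. Its exact permutation p was 0.233 after adjustment over the 21 pairs of members, and 52.5% of all pairs of genes lay apart in the same way.

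HIS5 and HIS2 complete the pathway before the final oxidation by HIS4, with HIS5 encoding histidinol-phosphate aminotransferase and HIS2 histidinol-phosphatase. HIS5 had signals of 443.7, 659.5 and 688.5 in the zymolyase arrays, against 488.0, 606.7 and 737.7 in the control arrays. The groups covered nearly the same range, array 1 being the lowest in each, and the log2 change was -0.04 (SE 0.23, 95% interval -0.57 to 0.49, adjusted p = 0.907). HIS2 had signals of 449.1, 401.8 and 536.2 in the zymolyase arrays, against 481.4, 474.6 and 472.6 in the control arrays. The control values lay within 1.02-fold of each other and inside the zymolyase range, with a log2 change of -0.05 (SE 0.16, 95% interval -0.42 to 0.31, adjusted p = 0.813). These intervals leave room for a change of either sign, and the sign turned in 2 of 14 alternatives for HIS2 and 3 of 14 for HIS5, among them the removal of the length trend for both (0.10 and 0.02).

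**Figure D2:**
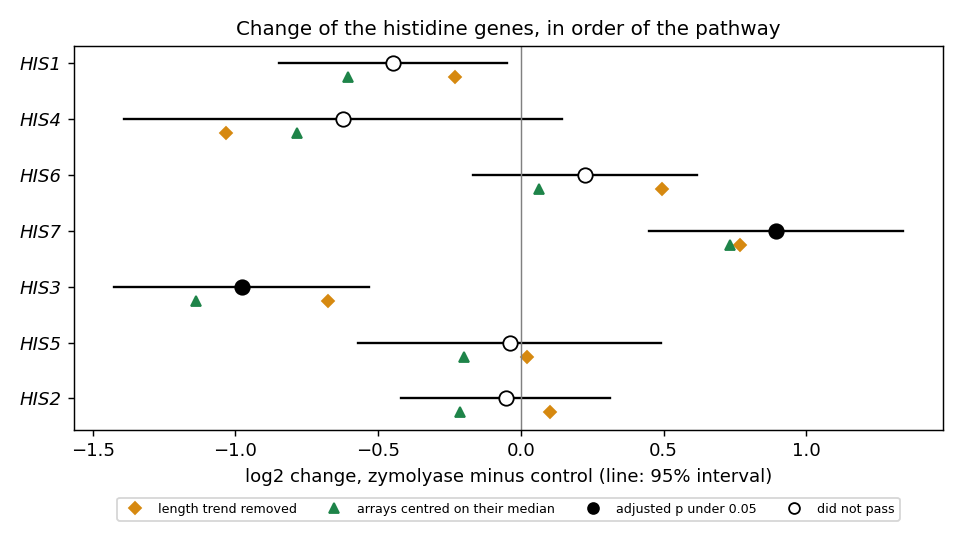
Log2 change, zymolyase minus control, of the histidine genes in the order of the pathway from top to bottom. Circles are the limma estimates (filled where adjusted p was under 0.05) with their 95% intervals, orange diamonds the changes with the length trend removed and green triangles those after centring each array on its median. HIS7 at 0.89 and HIS3 at -0.98 are the filled circles, and for both all 3 symbols lie on the same side of 0. The same holds for HIS1, HIS4 and HIS6, whose circles are open.

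A pair of measures over whole arrays are given beside these changes, from control genes with several probe sets and from gene length. The log2 ratio of 3′ to 5′ signal, averaged over 8 yeast control genes, was 2.60 ± 0.35 in zymolyase and 0.85 ± 0.24 in control arrays (SD, n = 3), higher by 1.74 (SE 0.25). An exact two-sided permutation test gave p = 0.1, and 3 against 3 allows no smaller value. Across all genes, which are not independent replicates, the change correlated with coding length at Spearman's rho = 0.34. For URA3, among these 8 genes, the 5′ probe set read 767.2 to 1295.2 in zymolyase and 1481.2 to 2040 in control arrays. Its 3′ probe set read 2432.8 to 3430.2 in zymolyase and 1156.1 to 1361.7 in control arrays, so the direction differed between probe sets of this gene. Each histidine gene was read by a single probe set. The part of the 3′/5′ difference in the members' changes was not tested. HIS3, with 663 bases the shortest of the 7, stood in a class of 545 genes of like length whose median log2 change was -0.21, and its change with the length trend removed was -0.68 (adjusted p = 0.0231). HIS7, with 1659 bases, stood in a class with a median of 0.08, and changed by 0.77 with the trend removed (adjusted p = 0.0159). HIS4 is the longest, with 2400 bases, in a class with a median of 0.44. Its change went against that median and was -1.03 with the trend removed (adjusted p = 0.0523).

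Differences between the members were examined as log2 ratios within each array, over all 21 pairs. The ratios of the zymolyase arrays lay apart from those of the control arrays in 9 of them, against 52.5% of all pairs of genes, so unequal change was no more common among the histidine genes than among genes in general. Of the 9 pairs, 5 held HIS7, 4 held HIS3, counting the pair of both in each, and 1 held neither, that of HIS1 and HIS6. The exact two-sided permutation p of each of these 9 was 0.1, the smallest possible, and 0.233 after adjustment over the 21 pairs. HIS1 to HIS4, the pair that opens the pathway, differed in change by 0.18 (SE 0.34) and HIS5 to HIS2 by 0.01 (SE 0.28), both with overlapping groups.

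The arrays within a group also differed in a way that some members shared. HIS4 and HIS5 were lowest on array 1 and highest on array 3 in both groups, and HIS6 was highest on array 1 and lowest on array 3 in both. In log2 units from its group mean, HIS4 was at -0.54, 0.01 and 0.53 on the zymolyase arrays and at -0.61, 0.27 and 0.34 on the control arrays. HIS6 was at 0.19, -0.04 and -0.15 on the zymolyase arrays and at 0.20, -0.04 and -0.16 on the control arrays. Over the 6 arrays, which share their numbers, these deviations from the group mean correlated at Pearson's r = -0.97 for HIS4 with HIS6 and for HIS5 with HIS6, the lowest of the 21 pairs of members, and at 0.91 for HIS4 with HIS5, the highest. These are extremes picked from the 21, and the share of all gene pairs so correlated is not given here. Over all genes, the deviations of same-numbered arrays correlated at 0.49, 0.20 and 0.41 for numbers 1, 2 and 3, so shared array order was not confined to the members. Zymolyase array 3 was the highest of its group for 6 of the 7 genes, all but HIS6, and zymolyase array 1 the lowest for 4. The median gene signal was also highest on zymolyase array 3, at 677.6 against 649.9 on array 1 and 629.7 on array 2. The share of all genes that were highest on that array is not given here, so the count is not read as particular to the histidine genes. Nothing in the labels says what the numbers stand for.

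**Figure D3:**
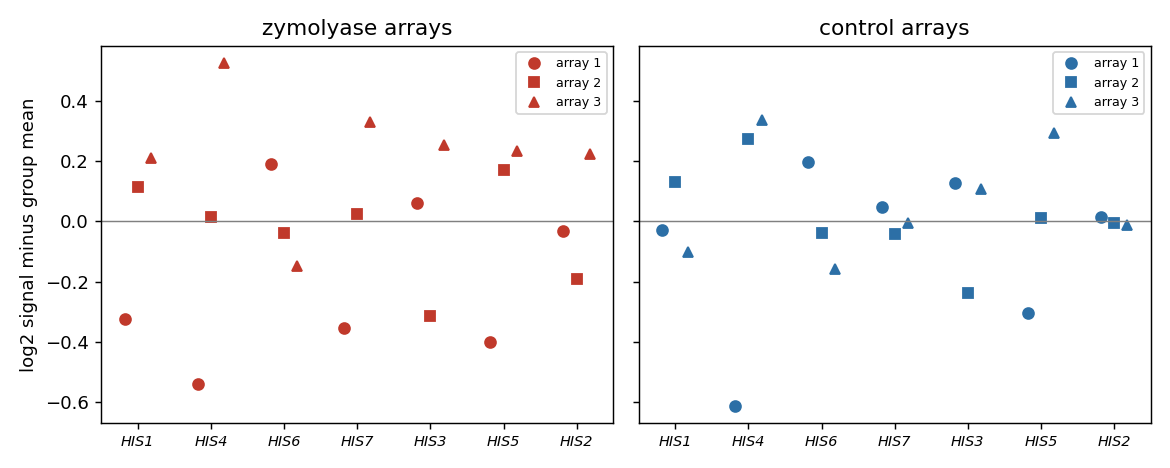
Log2 signal of each histidine gene on each array minus the mean of its group, zymolyase arrays in the left panel and control arrays in the right. Circles, squares and triangles are arrays 1, 2 and 3. HIS4 runs from -0.54 to 0.53 in zymolyase and from -0.61 to 0.34 in control arrays, and HIS6 has the opposite order of arrays in both panels.

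The gene most like each member over the 6 arrays was found by Pearson's correlation of log2 signal, given as a description of few points that share their groups. NUP60, for a nuclear pore protein, was most like HIS7 (r = 0.999), and 189 genes exceeded 0.95 with it. NUP60 rose by 0.81 on the log2 scale (SE 0.18, limma adjusted p = 0.00877). CBK1, for a kinase of cell separation, was most like HIS3 (r = 0.997), with 172 genes over 0.95, and fell by 0.59 (SE 0.17, adjusted p = 0.0240). PCL9, for a cyclin of the kinase Pho85, was most like HIS1 (r = 0.989) and fell by 0.53 (SE 0.18, adjusted p = 0.0450). The closest genes to HIS4, HIS6, HIS5 and HIS2 were ALT2, TIF34, UPC2 and MUP3, at r of 0.996, 0.994, 0.996 and 0.952, and none of these 4 passed the test. HIS2 had 1 gene over 0.95, HIS1 had 9, HIS5 had 18, HIS6 had 35 and HIS4 had 57.

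The genes next to each member on its chromosome were read as well, taking the nearest measured protein-coding gene on each side in the R64 gene table. Of these 14 neighbours, 2 rose, 5 fell and 7 did not pass, against the background of 22.5% higher and 20.0% lower. HIS3 fell together with both of its neighbours. MRM1, for a mitochondrial rRNA methyltransferase, had signals of 281.4, 229.1 and 316.7 in the zymolyase arrays, against 541.2, 381.8 and 490.3 in the control arrays, a log2 change of -0.77 (SE 0.20, limma adjusted p = 0.0162). Like HIS3, it was lowest on array 2 of both groups. DED1, for an RNA helicase of translation initiation, had signals of 402.9, 211.3 and 235.9 in the zymolyase arrays, against 2473.1, 1070.6 and 1155.9 in the control arrays. Its log2 change of -2.42 (SE 0.37, adjusted p = 0.00230) was larger in size than that of any member, and both it and HIS3 kept the call without each single array. MRM1 lost it without zymolyase array 2 (adjusted p = 0.0626) or control array 3 (0.0578).

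The other neighbours that passed lay next to HIS7, HIS5, HIS2 and HIS6. ARO4, for an enzyme at the entry to aromatic amino acid synthesis, lies next to HIS7 and fell by 0.93 on the log2 scale (SE 0.21, adjusted p = 0.00906), the opposite of HIS7. ARO4 averaged 1316 ± 234 in zymolyase and 2517 ± 563 in control arrays (SD, n = 3). HIS5, which did not pass, lies between PRM5, a pheromone-regulated gene that fell by 1.09 (SE 0.19, adjusted p = 0.00383), and NUP159, for a nuclear pore protein, which rose by 1.16 (SE 0.14, adjusted p = 0.00110). NUP159 is a long gene of 4383 bases, and with the length trend removed it rose by 0.54 (adjusted p = 0.0233). LSB3, for a protein of actin patches next to HIS2, fell by 0.95 (SE 0.16, adjusted p = 0.00343). RPB3, for a subunit of RNA polymerase II next to HIS6, rose by 0.41 (SE 0.14, adjusted p = 0.0459), a call kept in 6 of 14 alternatives and lost, among others, after centring (0.213) and quantile normalization (0.0820). It was also lost when zymolyase array 2 (0.130) or 3 (0.145), or control array 1 (0.0936), 2 (0.101) or 3 (0.0985), was left out. Neither neighbour of HIS1 (GIP2 and FCY2) nor of HIS4 (RRP7 and BIK1) passed.

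**Figure D4:**
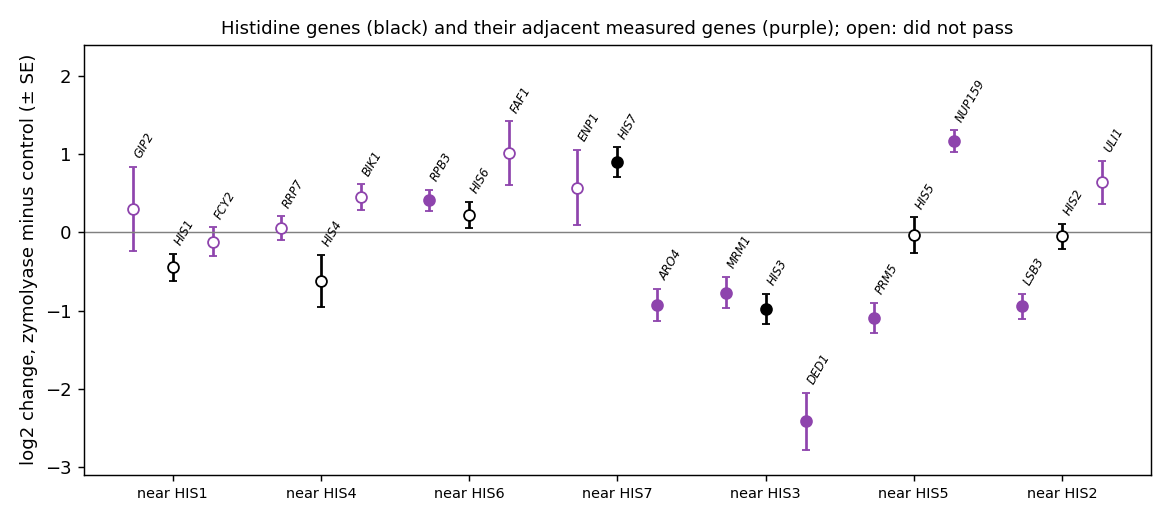
Log2 change, zymolyase minus control, with its SE, of each histidine gene (black) and the nearest measured gene on its left and right (purple), open where the test was not passed. Near HIS3 all 3 symbols are filled and below 0, at -0.77 for MRM1, -0.98 for HIS3 and -2.42 for DED1, whereas HIS7 at 0.89 has ARO4 at -0.93 on its right.

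Genes that feed, regulate or use the histidine pathway were taken as a list of 15, all measured. Of these, 4 rose, 4 fell and 7 did not pass by limma, or 26.7% in each direction against 22.5% higher and 20.0% lower among all genes. Their median log2 change was 0.11, against 0.04 for all genes.

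Supply of PRPP depends on the PRS family, whose 5 genes encode subunits of PRPP synthetase. PRS3 and PRS5 fell and the other 3 did not pass. PRS5 averaged 797.6 ± 165 in zymolyase and 1527 ± 274 in control arrays (SD, n = 3), a log2 change of -0.94 (SE 0.20, adjusted p = 0.00749). PRS3 averaged 1909 ± 326 in zymolyase and 2931 ± 310 in control arrays, a log2 change of -0.63 (SE 0.17, adjusted p = 0.0177). PRS3 did not pass with the length trend removed (0.0584), nor when zymolyase array 2 (0.0662) or 3 (0.0714) was left out. PRS1, PRS2 and PRS4 had log2 changes of 0.11, 0.02 and -0.10, and centring the arrays on their medians turned the sign of PRS1 to -0.05 and of PRS2 to -0.14.

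Among the regulators, BAS1 and GCN4 moved in opposite directions. BAS1, for the activator shared by histidine and purine genes, had signals of 857.6, 766.2 and 783.4 in the zymolyase arrays, against 370.2, 224.7 and 288.2 in the control arrays. The groups lay far apart, and the log2 change of 1.47 (SE 0.20, adjusted p = 0.00166) exceeded in size those of the 7 HIS genes. Its partner PHO2 did not pass, with a log2 change of 0.20 (SE 0.18, adjusted p = 0.415). GCN4 had signals of 4439.4, 4103.5 and 3682.0 in the zymolyase arrays, against 6479.8, 7613.5 and 6063.6 in the control arrays, with a log2 change of -0.72 (SE 0.14, adjusted p = 0.00588). Gcn4 activity is set largely by translation of its mRNA, which the arrays do not measure. BAS1 and GCN4 kept their calls in all 14 alternatives, with log2 changes of 1.06 to 1.66 for BAS1 and of -0.88 to -0.48 for GCN4. The smallest change of GCN4 was that with the length trend removed (adjusted p = 0.0457).

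GCN2, for the kinase that senses uncharged tRNA and raises Gcn4 translation, averaged 1277 ± 404 in zymolyase and 636.1 ± 119 in control arrays (SD, n = 3), a log2 change of 0.96 (SE 0.27, adjusted p = 0.0227). It is a long gene of 4980 bases, and with the length trend removed its change was 0.29 (adjusted p = 0.409). Its call was also lost after quantile normalization (0.0503), without zymolyase array 1 (0.0515) or 2 (0.0880) and without control array 2 (0.0801) or 3 (0.0698). RAP1, which binds the HIS4 promoter among many others, averaged 608.9 ± 22.7 in zymolyase and 441.7 ± 58.6 in control arrays, and rose by 0.47 (SE 0.15, adjusted p = 0.0399). That call was lost in 8 of 14 alternatives, with adjusted p = 0.801 and a change of 0.05 with the length trend removed, 0.105 after centring and 0.104 after quantile normalization. Leaving out an array also ended it, for zymolyase array 1 (0.0553), 2 (0.0899) or 3 (0.132) and control array 2 (0.142) or 3 (0.124). ABF1, which binds the HIS7 promoter, did not pass (log2 0.47, SE 0.18, adjusted p = 0.0649) but did so with the replicate block (0.0278) and without zymolyase array 3 (0.0433). With the length trend removed its change was 0.10 (adjusted p = 0.690).

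The paralogues ADE16 and ADE17 encode the enzymes that take up the AICAR released by the HIS7 step. ADE16 averaged 3498 ± 85.0 in zymolyase and 2593 ± 267 in control arrays (SD, n = 3), and rose by 0.44 (SE 0.13, adjusted p = 0.0304). The call of ADE16 was lost after centring (0.188), with the length trend removed (0.222), without zymolyase array 2 (0.0734) or 3 (0.105) and without control array 1 (0.0806) or 3 (0.0861). ADE17 did not pass, at 5484 ± 1403 in zymolyase and 4498 ± 1555 in control arrays (log2 0.32, SE 0.31, adjusted p = 0.436), and passed with the replicate block (adjusted p = 0.0313). Like HIS4, ADE17 was lowest on array 1 of both groups.

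Downstream of the pathway, HTS1, for histidyl-tRNA synthetase, had signals of 2835.1, 2255.2 and 2939.9 in the zymolyase arrays, against 2947.0, 3080.0 and 3001.2 in the control arrays. The groups lay apart by a narrow margin, and the log2 change of -0.18 (SE 0.15, adjusted p = 0.357) did not pass. HIP1, for the histidine permease of the plasma membrane, fell, with signals of 443.6, 352.0 and 433.4 in the zymolyase arrays, against 564.2, 564.7 and 635.4 in the control arrays. Its log2 change was -0.53 (SE 0.16, adjusted p = 0.0287), a call that did not hold when zymolyase array 2 (0.0966) or 3 (0.0677), or control array 2 (0.0723) or 3 (0.104), was left out.

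**Figure D5:**
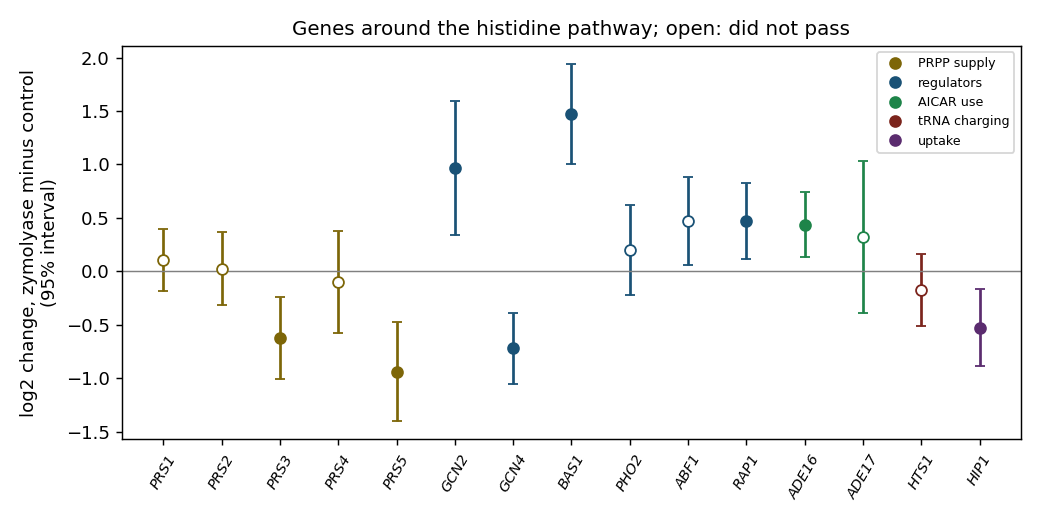
Log2 change, zymolyase minus control, with 95% intervals, of the 15 genes around the histidine pathway, coloured by role and open where the test was not passed. BAS1 at 1.47 is the highest and PRS5 at -0.94 the lowest, and GCN4 lies at -0.72.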

How the data were processed

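The authors deposited MAS5 signal intensity per probe set on a linear scale, named as MAS5 in the submitters' processing notes, and its version and settings are not given in the sources used here. About 4 µg of RNA per sample was labelled, per the labels' protocols. The mean signal after trimming 2% at each end was 500.2 to 500.3 on every array, so the deposited arrays share a common scale, and the values were not centred by gene. Of 10928 probe sets, 5498 matched 1 S. cerevisiae gene through gene identifiers of the platform annotation and the NCBI R64 table, giving 5449 genes, and 12 symbols were updated. A single symbol was given for 7244 probe sets, several for 1 and none for 3683. Where a gene had several probe sets (47 genes), the brightest was used. Zeros (7, with 0 in S. cerevisiae probe sets) were set to 0.1.

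Log2 signal was fitted with limma 3.58.1 in R 4.3.3 (lmFit, eBayes with an intensity trend), zymolyase minus control over all 6 arrays, and adjusted over all genes, after tests on simulated data. The number of arrays limits the precision. The lengths called coding lengths here are those of the R64 table. Of these, 97.0% were multiples of 3, so some are not plain coding lengths. The length trend was removed by lowess with a span of 0.3 on each array. Permutation tests used SciPy 1.17.1. Identical gene signals made up at most 0.202% between any 2 arrays.

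The histidine genes and the gene lists were chosen with earlier results of these data known. Genes named were the 7 members, the 15 pathway genes, the neighbours, the gene most like each member, and the genes of the strain label and of mating type. Deviations from the group means correlated at 0.49, 0.20 and 0.41 for arrays of the same number, all over 0.1, and on that basis, which is one of the data alone, same-numbered samples were treated as pairs in the blocked fit. The pair numbered 2 correlated no more than the highest of the differently numbered ones (-0.43 to 0.23).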

Additional observations from a re-analysis of the deposited data

How the results depend on the processing

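The calls of HIS3 and HIS7 were made in all 14 alternatives. Of the 7 histidine genes, 1 was higher and 1 lower as reported. With the length trend removed 2 were higher, HIS6 being added. After centring the arrays 2 were lower (HIS1 added), and with the replicate block 3 were lower (HIS1 and HIS4 added). Without single arrays 1 to 2 were lower and 1 was higher. Centring lowered every change by 0.16, after which 39.4% of all calls were higher in place of 52.8%. With the replicate block 1702 genes were higher and 1490 lower, in place of 1224 and 1092. The median change of the 7 genes lay between -0.21 and 0.02. Of the 15 pathway genes, 4 were higher as reported, 2 after centring, 2 after quantile normalization and 1 with the length trend removed, and 1 to 3 without single arrays, when 2 to 4 were lower. The replicate block changed no call of a histidine or pathway gene other than HIS1, HIS4, ABF1 and ADE17. Small changes that did not pass turned sign in some settings: with the length trend removed HIS2 was at 0.10, HIS5 at 0.023 and PRS4 at 0.069, after centring PRS1 was at -0.051 and PRS2 at -0.14, and after quantile normalization PRS2 was at -0.14. Without single arrays HIS2 ranged from -0.16 to 0.043, HIS5 from -0.19 to 0.16, PRS2 from -0.072 to 0.096, PRS4 from -0.23 to 0.085 and ADE17 from -0.0093 to 0.55. The cause of these moves was not tested. The number of arrays, 3 a group, sets the width of the intervals given.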
